A study of Mus musculus with 4 samples.

Results

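The m6A landscape of the uninjured spinal cord is described here from the peak list of the sham group, in which RNA pulled down with an m6A antibody (the IP library) was compared with the unselected starting RNA (the input library). All 34406 peaks of that list were taken, of the 67962 rows in the peak lists of both groups. The mice were C57BL/6J, and the tissue was spinal cord on day 7 after a sham operation, in which the surgery was done without tying the sciatic nerve. Sham was represented by 1 IP and 1 input library, made from poly(A) RNA, and how many mice stood behind a library is not given in the sources used here. With 1 library of each kind, no value below has a replicate check, and every share describes these libraries alone.

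N6-methyladenosine is laid down on adenosines of messenger RNA by a writer complex built around METTL3 and METTL14, can be removed by the erasers FTO and ALKBH5, and is bound by reader proteins of the YTH family. It sits mainly in long internal exons, around stop codons and along 3′-UTRs, within a short motif centred on GGAC, and it is known for its influence on the decay, splicing and translation of messenger RNA. Nervous tissue is among the tissues in which the mark is abundant.

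Each peak carries the authors' fold enrichment, the ratio of IP over input signal, and a log10 p-value of that ratio. A gene with a large fold enrichment has RNA fragments that are over-represented after capture, which is not the same as an abundant transcript. The files hold no read counts, so the depth is unknown, and a gene without a peak may be unmethylated, weakly expressed or too shallowly covered. These cannot be told apart here.

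The sham list named 12907 genes. Of the 21900 protein-coding gene symbols of the RefSeq table for the build GRCm38.p6, 11277 (51.5%) were named for at least 1 peak. The median fold enrichment was 5.70 (quartiles 3.04 and 12.4), with a range from 1.07 to 6910. A peak covered a median of 239 bp of exonic sequence, and 25.3% of the peaks (95% Wilson interval 24.8 to 25.7%, counting error only, as for every interval below) ran across at least 1 splice junction.

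Reference sequence was used here for start sites and microRNA hairpins, and the leader sequences that carried a peak are shown first because they let the motif be read under peaks of known strength. The rule took the strongest such peaks among the genes of the fixed lists in which GGAC, the core of the m6A motif, fell within the first 30 transcribed bases. Each line gives 30 bases before and 30 bases from the RefSeq start (RefSeq, GRCm38.p6, read 5′ to 3′ on the strand of the gene), and the capitals mark the first GGAC after the start.
Dusp1: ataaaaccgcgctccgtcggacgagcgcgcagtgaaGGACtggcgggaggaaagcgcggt
Jun: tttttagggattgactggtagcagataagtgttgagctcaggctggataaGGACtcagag
Cnp: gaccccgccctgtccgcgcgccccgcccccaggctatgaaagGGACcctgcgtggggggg
Gria2: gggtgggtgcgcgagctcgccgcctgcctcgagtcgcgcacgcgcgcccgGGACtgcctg
Pcif1: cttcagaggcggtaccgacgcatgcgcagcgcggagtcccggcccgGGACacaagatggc
Scn8a: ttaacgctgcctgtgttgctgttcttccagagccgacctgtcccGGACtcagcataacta

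These 6 windows belong to genes of quite different kinds. *Dusp1*, a phosphatase that switches off MAP kinases, had the strongest of these leader peaks, with a fold enrichment of 13.1 (chr17:26508279-26508519, minus strand), and its GGAC began at base 7 of the transcript. *Jun*, a subunit of the AP-1 transcription factor, had a leader peak of 5.23 (chr4:95052162-95052222, minus strand) with GGAC from base 21. *Cnp*, a myelin enzyme of oligodendrocytes, had one of 4.49 (chr11:100574934-100575215, plus strand) with GGAC from base 13.

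The leader peaks of the other genes were weaker. *Gria2*, the AMPA receptor subunit that makes the channel impermeable to calcium, had a value of 4.09 (chr3:80802655-80802835, minus strand). *Pcif1*, the enzyme that methylates adenosine next to the cap, had 3.17 (chr2:164879364-164882811, plus strand, spliced). *Scn8a*, a sodium channel of the axon initial segment, had 3.07 (chr15:100933473-100940160, plus strand, spliced). The RefSeq start used for *Scn8a* (chr15:100936271) lay inside the gene body, which begins at 100869863, and the peak began upstream of that start. The start used for *Gria2* (chr3:80802835) was also internal, since its gene body on the minus strand begins at 80804227. For *Cnp* the start used (chr11:100574939) lay slightly inside a gene body that begins at 100574909. Only 7 genes of the lists had GGAC within the first 30 bases of a start under a peak, so the set is small.

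Across the genome the letters of the motif were somewhat more frequent under leader peaks. The 50 transcribed bases of 1393 RefSeq start windows lay wholly under a peak, and 23.1% of these held GGAC (21.0 to 25.4%), read on the strand of the transcript. Among 10000 windows of genes named in the list whose start was not touched by a peak the share was 19.7% (18.9 to 20.5%), and among all 32851 windows it was 18.9%. The longer word GGACT, a subset of the GGAC matches, was found in 6.10% (4.96 to 7.48%) of the covered and 5.15% (4.73 to 5.60%) of the untouched windows. The covered windows were also richer in G and C, at 67.0% of bases against 63.9%, and the part of base composition in the difference was not tested. Counting GGAC on either strand, the shares were 38.1% (35.6 to 40.7%) and 36.7% (35.8 to 37.6%), so they overlapped.

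The first transcribed base matters because a cap-adjacent adenosine can carry a related mark that m6A antibodies also bind. It was an A in 29.7% of the covered windows (27.4 to 32.2%) and in 29.01% (28.1 to 29.9%) of the untouched windows of named genes. The intervals overlap, so a difference was not detectable at this number of windows. The first base is also that of a RefSeq model and not a mapped cap site, so the comparison cannot decide on cap-adjacent adenosines.

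Peaks were spread along transcripts with a weight toward the 3′ side. By the authors' annotation 48.9% lay in a 3′-UTR (48.3 to 49.4%), 35.1% in another exon (34.6 to 35.6%) and 16.1% in a 5′-UTR (15.7 to 16.4%). The strength of the peaks ran in a different order from their number. The median fold enrichment was 8.21 in 5′-UTRs (interval of the median 7.99 to 8.65), 5.81 in 3′-UTRs (5.73 to 5.93) and 4.78 in other exons (4.65 to 4.88). A fold enrichment of at least 10, called strong below, was reached by 44.8% of the 5′-UTR peaks, 31.0% of the 3′-UTR peaks and 24.2% of the others.

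Exons outside the UTRs were not alike. Internal exons held 6862 of the 12072 exon peaks and had the lowest median fold enrichment, 3.95 (3.85 to 4.07). Peaks annotated to a last exon had a median of 5.81, those of a first exon 5.73, and the 1061 peaks on transcripts with a single exon 7.73 (7.02 to 8.48). The exonic length under a peak did not follow this order, at a median of 211 bp in internal exons against 180 bp on single-exon transcripts.

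**Figure D1:**
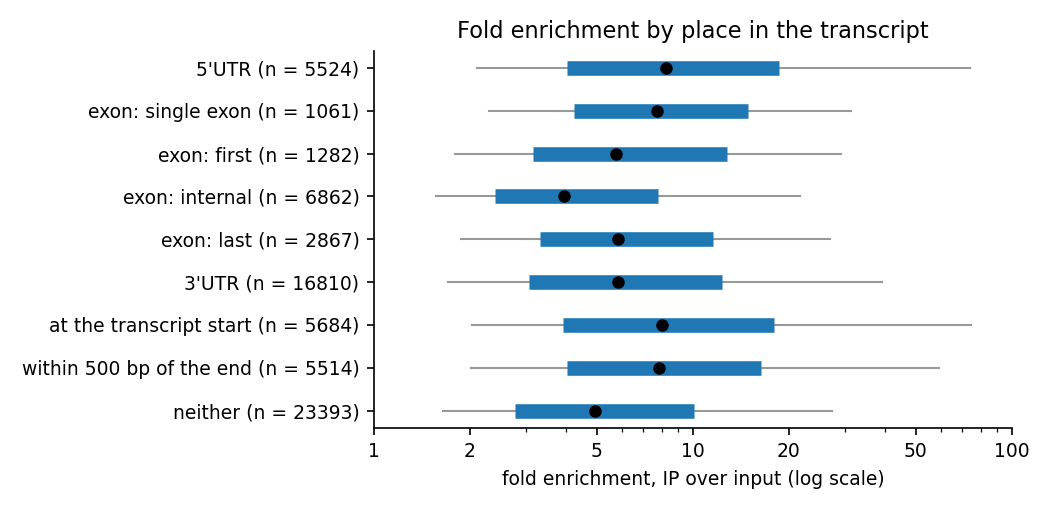
Fold enrichment of IP over input (log axis) by place in the transcript, with the median as a dot, the quartiles as a thick bar and the 5th to 95th percentile as a thin line; the last 3 rows regroup the same peaks. The 5′-UTR peaks (median 8.21) sit highest among the annotated regions and internal exons (3.95) lowest, with wide overlap between all classes.

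Both ends of the transcript stood out from its body. Of all peaks, 5684 (16.5%) reached the annotated start of their transcript, and 60.7% of these were annotated as 5′-UTR. Their median fold enrichment was 8.02 (7.67 to 8.26). A total of 5514 (16.0%), of which 185 also reached the start, were centred within 500 bp of the transcript end, 87.5% of them in a 3′-UTR, with a median of 7.84 (7.59 to 8.13). The 23393 peaks at neither place had a median of 4.94 (4.86 to 5.00).

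Close to the end the centres of the peaks crowded into a narrow zone. In steps of 50 bp the count was highest 100 to 150 bp before the end, with 930 peaks, and it fell to 331 at 500 to 550 bp. The share of strong peaks followed the same course, from 55.2% at 100 to 150 bp to 24.5% at 500 to 550 bp. In 2011 peaks (5.84%) the border lay within 1 bp of the annotated end. These border peaks had a median fold enrichment of 13.1 (12.6 to 13.9), and 59.6% of them (57.5 to 61.7%) were strong, against 25.2% (24.7 to 25.8%) of the peaks at neither end. The border peaks covered a median of 240 bp of exonic sequence (quartiles 151 and 390 bp). A peak that stops at the end is centred before it by a distance set by its length. The step with most centres therefore does not place the mark. How far falling input coverage at transcript ends has a part in these values was not tested, since the files hold no coverage.

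**Figure D2:**
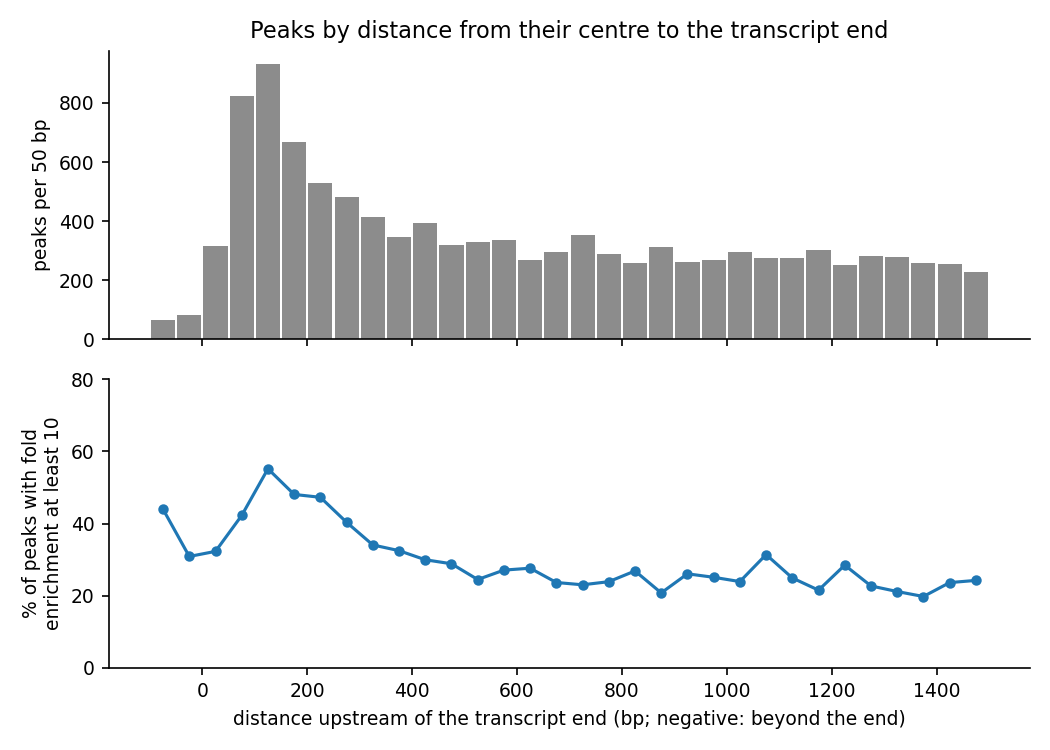
Number of peaks (top) and share of strong peaks, at a fold of 10 or more (bottom) in 50 bp steps of the distance from the peak centre to the annotated transcript end, with negative distances beyond the end. Both are highest 100 to 150 bp before the end (930 peaks, 55.2%) and level off past about 500 bp.

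Most genes carried few peaks. By deposited gene name, 35.3% of the genes (34.5 to 36.1%) had 1 peak, 24.7% had 2 and 39.97% had 3 or more. The 1798 genes with at least 5 peaks (13.9%) held 35.1% of all peaks. Long non-coding RNA genes more often had a single peak, 60.2% of 485 (55.8 to 64.5%) against 31.4% of 11277 coding genes (30.6 to 32.3%). Their peaks had a median fold enrichment of 7.44 (6.97 to 7.90) against 5.58 (5.50 to 5.66) for coding genes.

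The names with most peaks needed a second look, because a name followed the annotated transcript and some transcripts run through several genes. *Pcdhgc4*, a protocadherin of the gamma cluster on chromosome 18, headed the list with 97 entries, but these collapsed to 12 separate places once overlapping peaks were merged, and 89 of the entries were in the 3′-UTR that the cluster members share. The gamma cluster also supplied *Pcdhgb2* (22 entries, 22 places) and *Gm26672* (21 entries, 15 places). *Pcdha11* (32 entries, 16 places) belongs to the separate alpha cluster on the same chromosome. Reads over a shared 3′-UTR cannot be assigned to a single member of a cluster. Of the *Pcdhgb2* entries 1 was in a 3′-UTR and 19 were in other exons, and of the *Pcdha11* entries 15 and 14. Whether those other exons are shared was not tested.

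*Fgfr2*, a receptor for fibroblast growth factors, came second with 46 peaks, yet only 2 lay within its RefSeq gene body (chr7:130162451-130266808). The others fell along a transcript of 2960900 bp that carries its name, over neighbours such as *Chst15* (7 peaks) and *Ctbp2* (4 peaks). *Gm20388*, with 24 peaks, spanned 4434882 bp in the same way. *Glod4*, chosen after its values were seen, had 18 peaks of which none lay in its own gene body and 16 lay in that of *Gemin4*, a component of the SMN complex. Of the 32702 peaks with a RefSeq symbol, 96.7% (96.5 to 96.9%) overlapped the body of the gene they were named for. This check also passes peaks over several genes, such as all 97 of *Pcdhgc4*, and leaves out names absent from RefSeq, such as *Gm20388*. It therefore does not give the share of misplaced names, and 11.8% of all peaks lay over 2 or more RefSeq genes.

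The remaining names at the top were long single genes with separate peaks. *Ahnak*, a giant scaffold protein at the plasma membrane, had 24 peaks at 24 places, 23 of them in its last exon (exon 5 of 5), and all were weak, from 1.62 to 9.68. *Dst*, a cytoskeletal linker whose loss causes sensory neuron degeneration, also had 24 separate peaks, with a range from 1.29 to 54.6. *Fat4*, a giant cadherin of planar cell polarity, had 24 peaks at 20 places, 11 of them in its first exon, and *Zfhx3*, a homeobox and zinc-finger transcription factor, had 21 at 21 places.

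A second count used only the 29589 peaks (86.0%) that lay over exactly 1 RefSeq gene, assigned them to that gene and merged overlaps. The 4047 peaks over 2 or more genes and the 770 over none were left out, which removes the protocadherin clusters. The genes it adds to those named above were chosen after their values were seen. *Ahnak* and *Dst* led this count with 24 places each, followed by *Fat4* with 21, *Pclo*, a scaffold of the presynaptic active zone, with 20, and *Ank3*, the organiser of the axon initial segment, *Zfhx3* and *Zfhx4* with 19 each. The first 10 were completed by *Fat1* and *Stard9* with 17 and *Kmt2d*, a histone H3 methyltransferase, with 16. The 4120 genes with a single place had a median gene body of 19500 bp, and the 98 with 10 or more had one of 127816 bp. Longer genes therefore held more peaks, and how far length alone sets the count was not tested.

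**Figure D3:**
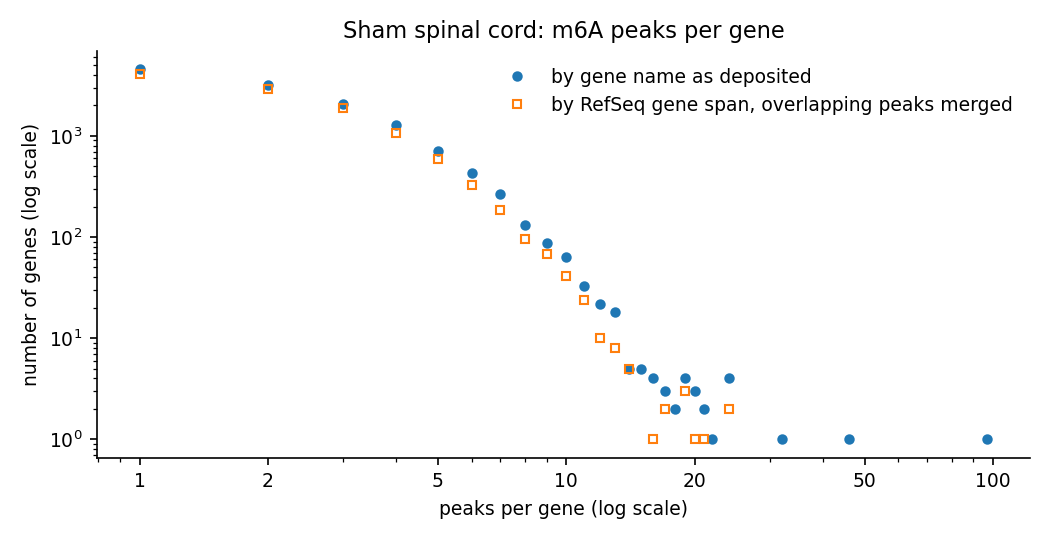
Number of genes (log axis) against the number of peaks per gene (log axis), by gene name as deposited (filled) and by RefSeq gene span with overlapping peaks merged (open), the latter from peaks over exactly 1 gene. The names at 97, 46 and 32 peaks have no counterpart in the second count, which leaves out peaks over several genes and whose highest value is 24.

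The highest fold enrichments were spread over all regions. *Ndn*, encoding the growth suppressor necdin and imprinted in the Prader-Willi region, was far ahead with 6910 in its 3′-UTR (chr7:62349637-62350024, plus strand, also overlapped by the model *Gm32061*), while its other peak had 2.5. *Celf4*, an RNA-binding protein of excitatory neurons, had 2020 at its 5′ end (chr18:25753409-25754157, minus strand), and *Tnk2*, a non-receptor tyrosine kinase, had 2020 at its own (chr16:32643874-32644951, plus strand). The strongest peak of each stood far above the next, which had 6.14 in *Celf4* and 23.3 in *Tnk2*.

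*Fam171a2* (1560, chr11:102436981-102438540), *Scaf1*, a partner of RNA polymerase II (1530, chr7:45002948-45007038) and *Fbxl19*, an F-box protein that binds CpG islands (1270, chr7:127767543-127768557), followed with 3′-UTR peaks. *Rrbp1*, a ribosome-binding protein of the endoplasmic reticulum, had 1270 in exon 2 of 24, and *Enah*, a regulator of actin at growth cones, had 1120 in exon 6 of 14. *Aes*, a Groucho-family corepressor listed by RefSeq as *Tle5*, had 984 at its start. *Hcn2*, a pacemaker channel, closed the first 10 with 820 in its 5′-UTR.

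Such values should be read together with their p. Among the commonest fold enrichments, many were close to whole multiples of 1.16. The commonest value, 12.8, was shared by 396 peaks, of which 171 also had the same log10 p of -2.85, and 13.9 was shared by 374 peaks, of which 211 had -3.15. In the plot of fold against p these form the lower edge of the cloud, where the ratio of -log10 p to fold enrichment reached its minimum, between 0.22 and 0.284, in every class of fold from 10 upward. Of the 10616 strong peaks, 13.9% (13.2 to 14.6%) had a log10 p above -5, against 19.1% (18.7 to 19.6%) of all peaks. A fixed limit on p does not follow this edge, where -log10 p rises with fold. A ratio up to 0.32 was found in 1401 of the 6363 peaks with a fold of 10 to 20. At folds of 20 to 50 it was 748 of 2991, and at 50 to 100 it was 174 of 806. At 100 to 500 it was 91 of 424, and from 500 upward 7 of 32. Below a fold of 10 it was 0 of 23790. Whether that edge is made of peaks without reads in the input was not tested, because counts were not part of the files.

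The same edge reached genes with very high fold enrichments. *Hcn2*, with a log10 p of -253 for its fold of 820, lay close to it at a ratio of 0.31, as did *Fbxl19* at 0.32, whereas *Ndn*, with -7170, lay far above it at 1.04. Under a stricter rule, chosen after the data were seen, that asks for a fold of at least 10 and a log10 false discovery rate at or below -10 in the same peak, 5611 of the 12907 genes (43.5%) had a strong peak, against 7269 (56.3%) by fold alone.

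**Figure D4:**
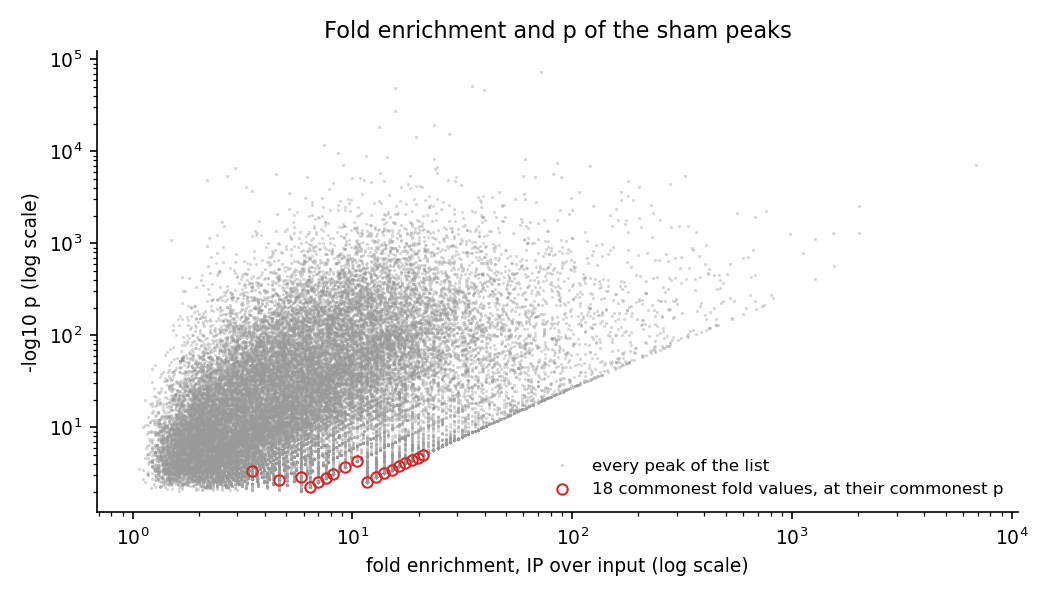
Every peak by fold enrichment (log axis) and -log10 p (log axis), with circles at the 18 commonest fold values placed at the commonest p of each. The lower edge shows the weakest p found at a given fold, such as a log10 p of -2.85 at a fold of 12.8.

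Lists of well-known spinal cord genes were then read against this background of 56.3% of named genes with a strong peak and a median strongest fold enrichment of 11.8 (11.6 to 12.2). Over the 19 lists, 313 of 423 members were named for a peak, and 185 of the 313 (59.1%, 53.6 to 64.4%) had a strong one, so the interval spans the background share. The counts below give members with a peak, members with a strong peak and the median of the strongest fold enrichments. No test was applied to any list. The strongest peak of a gene depends on how many peaks it has, since 38.9% of the names with 1 peak were strong against 81.6% of those with 5 or more. Scoring each gene by the median of its peaks instead left 31.4% of all names and 33.9% of the list members strong, and the count by this median is added in parentheses for each list that it moved by over 1.5 times.

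**Figure D5:**
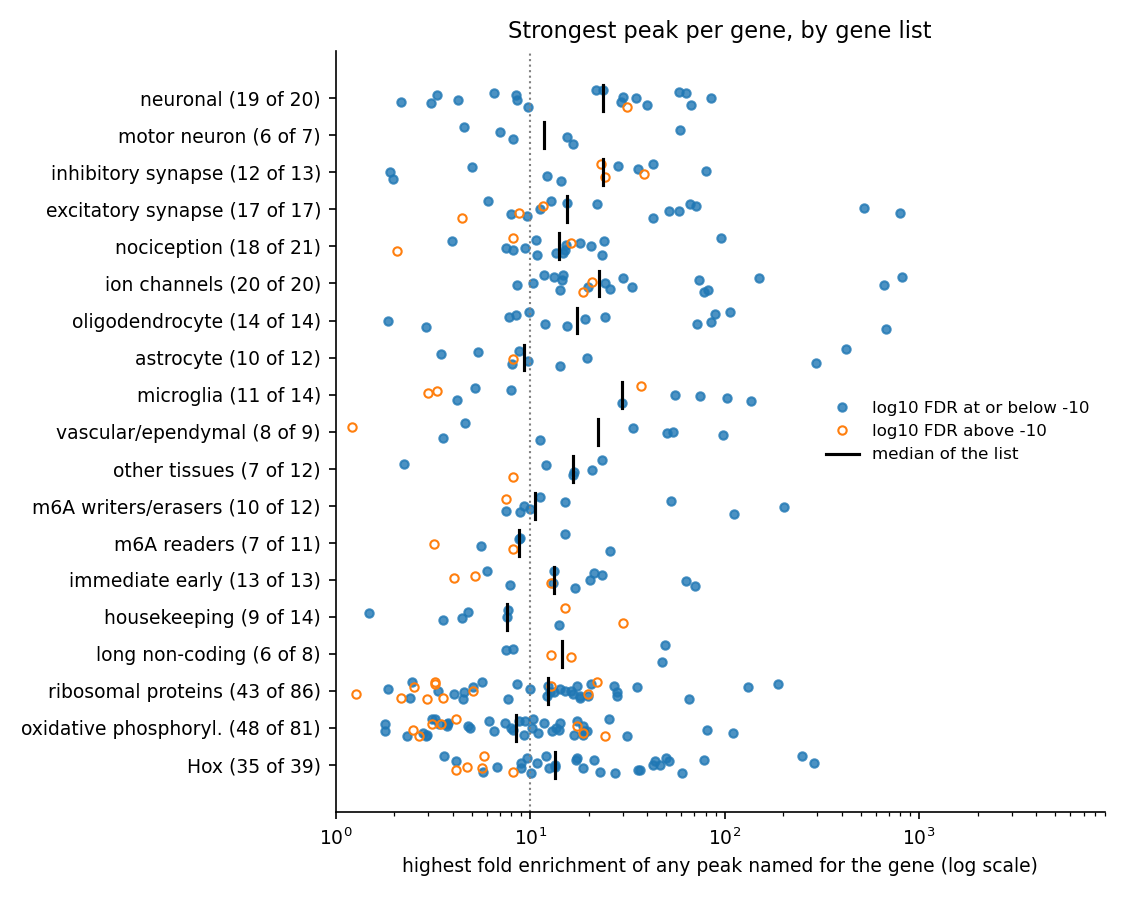
Highest fold enrichment of any peak named for a gene (log axis), with 1 point per list member that had a peak, filled where that peak had a log10 false discovery rate at or below -10; bars mark list medians, the dotted line a fold of 10, and points are shifted vertically only to separate them. Ion channel genes lie almost all to the right of the line (19 of 20), housekeeping genes mostly to the left (3 of 9 strong).

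Neuronal structural genes carried 123 peaks. All but *Nefl* of the 20 genes were named for a peak, 11 had a strong one (3 by the median), and the median strongest value was 23.8. The heavy neurofilament *Nefh* had 5 peaks, with 35 in its 3′-UTR (chr11:4938754-4940244) and 19.4 in its last exon at some of the lowest log10 p-values of the list, -51500 and -14300. The medium neurofilament *Nefm* had 39.9 in exon 2 of 4 with a log10 p of -46100. *Nefl*, the light neurofilament, is not absent from the data, since 3 peaks lay in its gene body (chr14:68083863-68089095) under other names, 2 of them under *Nefm*, with a highest value of 13.2.

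Other structural genes ranged from weak to strong. *Ank3* reached 85.6 and *Ank2* 67.4, both linking channels to the axonal cytoskeleton. *Dync1h1*, the heavy chain of the retrograde motor dynein, had 63.2 in its 3′-UTR while its 3 coding peaks stayed between 1.51 and 3.45. At the other end, *Snap25*, a SNARE protein of synaptic vesicle release, had 2.18 as its best value, *Uchl1* 3.11 and *Syt1*, the calcium sensor of release, 3.33. All of these came with a log10 p of -53.2 or lower, so they were low in enrichment but not weakly supported.

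Motor neuron and cholinergic genes were a short list, with 6 of 7 named, 3 strong and a median of 11.8. *Ache*, which breaks down acetylcholine, had 5 peaks and 59.3 at its transcript end (chr5:137294287-137294466). *Mnx1*, a motor neuron homeobox gene, had 16.6, and *Prph*, an intermediate filament of motor and sensory axons, had 15.5. *Chat*, the synthetic enzyme, had 4 peaks under its name, but 3 of them, with 4.58, 2 and 1.52, lay over the vesicular transporter gene *Slc18a3* inside the *Chat* gene body. The remaining *Chat* peak had 2.19, and a further peak of 11.7 in the *Chat* body was named *Gm2990*.

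Genes of glutamate transmission were all named for a peak. Of the 17, 12 had a strong one (2 by the median), with a median of 15.4. *Dlg4*, encoding the postsynaptic scaffold PSD-95, had 799 over 5 spliced blocks at its 5′ end (chr11:70017820-70029853) at a log10 p of -275, and its other 4 peaks ran from 2.97 to 19.1. Under their own names *Shank1* reached 71.5 and *Grin2d* 66.2. The *Shank1* body also held a peak of 458 named *1700008O03Rik*, and that of *Grin2d* 2 peaks named *Gm45441*, up to 121. The AMPA receptor genes *Gria1* and *Gria4* stayed below 10, at 9.65 and 7.96, while *Gria3* had 15.4 and *Gria2* 11.3.

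Inhibitory transmission genes had 12 of 13 named, 9 strong (4 by the median) and a median of 23.8. *Gphn*, the gephyrin scaffold of glycine and GABA receptors, had 80.3 at its 5′ end, and *Gad1*, a GABA-synthesising enzyme, had a single peak of 43.0 at its transcript end (chr2:70601894-70602014). *Gabbr2* (24.4), a GABA-B receptor subunit, and *Pax2* (23.2), a transcription factor of inhibitory interneurons, had strong values at log10 p of only -5.95 and -5.64. The *Pax2* body also held a peak of 168 named *1700039E22Rik*. The glycine receptor subunit gene *Glrb* was weak at 1.98, and *Glra3* had no peak.

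Voltage-gated channels had a strong peak in 19 of 20 genes (7 of 20 by the median, against 31.4% of all names), and a median of 22.6. *Hcn2*, beside its 5′-UTR peak, had 159 in its 3′-UTR at a log10 p of -2390 and 9.2 in another exon. *Cacna1a*, the P/Q-type calcium channel, had 151 and 115. *Scn8a* had 11 peaks, with 18.6 as the highest at a log10 p of -4.38.

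Pain-related genes of the dorsal horn had 46 peaks, of which 39 (84.8%) were in a 3′-UTR, against 48.9% of all peaks. The ribosomal and the vascular lists also had high shares, with 42 of 52 and 12 of 16 peaks. In all, 18 of 21 were named and 12 were strong, with a median of 14.1. *Tacr1*, the substance P receptor, had the highest value, 95.3, in its 3′-UTR (chr6:82558878-82560104), and *Oprk1*, the kappa opioid receptor, had 24.1.

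Peptide genes were represented by small numbers of peaks. *Sst* (20.5), *Pdyn* (18.1), *Grp* (15.3) and *Npy* (10.7) were strong, *Penk* reached 8.18 and *Cck* 2.08. *Bdnf*, a neurotrophin, had a single peak of 15.2, annotated as 5′-UTR. *Oprm1*, the mu opioid receptor, had 5 peaks from 4.51 to 10.8. *Mmp24*, a membrane-bound matrix metalloproteinase, had 4 entries at 3 places, all in its 3′-UTR, with values of 13.6, 12.4, 12.1 and 3.86. No peak was found over *Tac1*, *Calca* or *Trpv1*, of which the last 2 are typical of sensory ganglia.

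Myelin and oligodendrocyte genes were all named for a peak. Of the 14, 9 were strong (4 by the median), with a median of 17.4. *Mag*, an adhesion molecule of the inner myelin wrap, had 677 across 2 spliced blocks, annotated to exon 5 of 13 (chr7:30908767-30911494) at a log10 p of -239, whereas its other 4 peaks ran from 2.96 to 4.60. *Sox10* had 106 at its 5′ end and *Myrf*, the myelin regulatory factor, 89.5 at a log10 p of -25.6.

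Several abundant myelin transcripts were weak by the same measure. *Mbp* had 5 peaks with a highest value of 9.85, *Mobp* had 11 peaks from 1.30 to 8.48, *Mog* had 7.81, *Mal* 2.93 and *Cldn11* 1.85. High and low fold enrichments thus stood side by side within a single cell type.

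Of 12 astrocyte genes, 10 were named and 4 were strong (1 by the median), with a median of 9.29. *Gfap*, the astrocyte intermediate filament, had 422 in a peak of 151 bp at its transcript end (chr11:102887336-102887486), at a log10 p of -180. *Slc6a11*, a GABA transporter, had 294 at its start (chr6:114131241-114131480). *Sox9* had 19.5 and *Slc1a3* 14.2, while *Slc1a2*, the main glutamate transporter, had 6 peaks between 1.22 and 3.50. *Aldoc* had no peak, and 3 peaks in the body of *S100b* were named *Dip2a*.

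Microglial genes had 11 of 14 named, 6 strong (3 by the median) and a median of 29.6. *C1qa* (136), *Cx3cr1* (103), *Csf1r* (74.4) and *C1qb* (55.4), a complement component, a fractalkine receptor, a growth factor receptor and another complement component, each had their strongest peak in a 3′-UTR. *Aif1*, the gene of Iba1, had 37.2 at a log10 p of -9.47. *Trem2*, *Tyrobp* and *P2rx4* had no peak. Of the vascular and ependymal genes 8 of 9 were named and 5 were strong (3 by the median) with a median of 22.5, led by *Cldn5*, a tight junction protein of endothelium, with 97.6 and *Foxj1*, a regulator of cilia, with 54.6.

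Markers from outside the cord were also present. Of 12 genes of Schwann cells, sensory ganglia, blood, muscle and fibroblasts, 7 were named and 5 were strong (3 by the median), with a median of 16.6. *Prx*, a Schwann cell gene of peripheral myelin, had 16.8. *Hbb-bs*, a beta globin, had 20.9. The muscle genes *Acta1*, *Myh4* and *Ckm* had none, nor did *Pmp22* and *Dcn*. The part of nerve roots or blood in the tissue was not tested.

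The m6A machinery was itself marked in part. Of the writers and erasers 10 of 12 were named and 5 were strong (3 by the median), with a median of 10.6. *Zc3h13*, a scaffold of the writer complex, had 201 over 7 spliced blocks, annotated to exon 11 of 19 (chr14:75324540-75337462) at a log10 p of -4130, *Rbm15b* had 112 and *Cbll1*, also known as HAKAI, had 53.1. The core writer genes *Mettl3* and *Mettl14* had no peak. *Fto* and *Alkbh5* had 7.55 each, at log10 p of -4.75 and -17.7.

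Of the readers, 7 of 11 were named and 2 were strong (1 by the median), with a median of 8.73. *Ythdc1*, the nuclear reader, had 7 peaks and 25.9 at its 5′ end, and *Ythdf1* had 15.1. *Ythdf3* reached 8.73 and *Ythdf2* 5.57, and *Ythdc2*, *Igf2bp1*, *Igf2bp3* and *Hnrnpc* had none.

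All 13 immediate early genes were named, 9 with a strong peak and a median of 13.2. *Egr3* had 70.3 in its last exon, and its 6 entries lay at 3 places. *Jund* had 63.1 under its own name. The *Jund* body also held 3 peaks named *Gm11175*, up to 180. *Jun* reached 5.23 under its own name, and a peak of 365 in the *Jun* body was named *Junos*. *Egr1* had 23.4 and *Arc* 20.4, both in the 3′-UTR, while *Fos* (6.01) and *Atf3* (4.07), a factor induced by nerve injury, were lower. Hox genes, which keep the positional identity of cord segments, were named in 35 of 39 cases with 23 strong and a median of 13.4. *Hoxd3* had 289 (chr2:74746380-74747575) and *Hoxd8* 251. In these tight clusters names slip between neighbours, and the peaks in the bodies of *Hoxd4* and *Hoxc9* were named *Hoxd3* and *Hoxc5*.

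Genes with basic cellular roles differed from list to list. Of 14 housekeeping genes 9 were named and 3 were strong (1 by the median), with a median of 7.63, and *Actb*, *Hprt* and *Ldha* had none. Under the stricter rule 1 of these 3 was left, *Eef2* with 14.0, while 15.1 for *Gapdh* (log10 p of -3.94) was lost. A peak of 179 in the *Gapdh* body was named *Iffo1*. Ribosomal protein genes were named in 43 of 86 cases, close to the 51.5% of all coding genes, and 42 of their 52 peaks (80.8%) were in 3′-UTRs. Of the 43, 23 were strong, with a median of 12.3. Within that list *Rpl4* had 189 at a log10 p of -2990 and *Rpl28* 132. Nuclear genes of oxidative phosphorylation were named in 48 of 81 cases, with 21 strong and a median of 8.43.

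Long non-coding RNAs differed among themselves, with 6 of 8 named, 4 strong (2 under the stricter rule and 0 by the median) and a median of 14.6. *Neat1*, the scaffold of paraspeckles, had 10 entries at 5 places, the strongest being 49.1 near its 5′ end (chr19:5845060-5845476). *Meg3*, a maternally expressed RNA, had 15 separate peaks under its name. Of these, 14 lay between 1.19 and 7.24 and the last, 16.3, had a log10 p of only -3.76. The *Meg3* body held 18 peaks, the others being named *Gm26906* (2) and *Mir770* (1), with a highest value of 39.4. *Mirg*, from the same imprinted region, had 47.6 in its last exon. A single peak in the body of *Malat1* was named *Gm37376* and had 11.5.

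MicroRNA genes gave a last view of naming. Of 1005 mouse hairpins in the RefSeq table, 19 (1.89%, 1.21 to 2.93%) lay wholly inside a peak, and 12 of those peaks were named for the microRNA although each lay over the gene body of a longer RNA. The peaks of *Mir5125* and *Mir5114* had exactly the bounds of their hairpins. The mature sequences of 4 of the 19 hairpins, chosen after their values were seen, are shown with the seed (bases 2 to 8) in capitals, since they are bases that lie under peaks. No seed is shared among the 4.
mmu-miR-1306-5p: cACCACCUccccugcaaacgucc
mmu-miR-671-5p: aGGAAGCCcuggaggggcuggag
mmu-miR-935: cCCAGUUAccgcuuccgcuaccgc
mmu-miR-678: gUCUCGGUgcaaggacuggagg

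The first lies in the leader exon of *Dgcr8*, the partner of Drosha in microRNA processing, under a peak named *Dgcr8* with 4.44 (chr16:18284062-18284571, minus strand). The hairpin of miR-671 lies in a 3′-UTR peak of 10.2 (chr5:24591151-24592914) over *Chpf2*, miR-935 in one of 76.3 (chr7:3414877-3415648) over *Cacng8*, an auxiliary subunit of AMPA receptors, and miR-678 in one of 12.1 (chr10:76207222-76207461) over *Prmt2*. GGAC was present in 6 of the 19 hairpins (31.6%, 15.4 to 54.0%), against 24.5% of all 1005, so no difference was detectable. Poly(A) libraries of this kind do not measure mature microRNAs, and the peaks describe the host transcripts.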

How the data were processed

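MeRIP-seq peaks of the sham group were taken from the authors' deposited list, made from 1 IP and 1 input library. The submitters' processing notes name fastp, HISAT2, HOMER, ChIPseeker and GRCm38, whereas the paper's methods name Cutadapt, bowtie, MACS2 and ChIPseeker. The fold enrichment is the authors' ratio of IP over input, and each p-value is the authors' test of it. Both log10 columns of the deposited list (p and false discovery rate) were treated as a score, because many values lie far beyond the usual range of a p-value. A further deposited table holds the authors' own comparison of the injured and sham groups and was not used.

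From these, peaks were counted per gene name, region and distance to the annotated ends, using exonic blocks and an overlap of at least 1 bp, and compared with RefSeq gene spans and start windows (GRCm38.p6). Of the gene names, 93.0% were RefSeq symbols. Shares carry 95% Wilson intervals and medians exact binomial order-statistic intervals. No test between groups was possible. The named genes are the 10 names with most peaks, the 10 with the highest fold enrichment and members of the fixed lists; others, such as the leading genes by RefSeq span, were chosen after their values were seen. Some list members are counted but not reported by name here. Members and lists were chosen with earlier results of these data known. Counting and merging steps were tested on simulated data. The search for motifs inside peaks was not run, because no genome sequence was used here. Python 3.11.15, pandas 2.3.3, numpy 2.4.6, scipy 1.17.1 and matplotlib 3.10.9 were used.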

Additional observations from a re-analysis of the deposited data

How the results depend on the processing

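No paired analysis was possible because there was 1 IP and 1 input library. Of the 44 alternative values for shares and medians, 15 stayed inside the interval of the reported value, 29 left it, and no test was involved. The share of names with 1 peak (35.3%) was 37.8% with overlapping peaks merged, 48.5% at a fold enrichment of at least 4, and 36.3% by RefSeq spans (chosen after seeing the data). Counting the strongest peak per name gave 52.7% in 3′-UTRs, 27.5% in other exons, 19.8% in 5′-UTRs and 23.8% within 500 bp of the end. A fold of at least 4 gave 31.7% in other exons, 18.9% in 5′-UTRs and 18.9% near the end. Peaks inside the span of their named gene (chosen after seeing the data) gave 49.4% in 3′-UTRs and 34.4% in other exons. The share near the end was 8.57% for 200 bp, 24.8% for 1000 bp and 20.02% by the nearest edge.

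The median fold enrichments in 3′-UTRs, other exons and 5′-UTRs were 4.28, 3.95 and 6.66 for peaks of 100 to 300 bp, 8.91, 6.57 and 10.1 for the strongest peak per name and region, and 7.36, 6.10 and 10.6 at a log10 false discovery rate at or below -10 (chosen after seeing the data). Their order was kept in all 4 alternatives. The share of names with a strong peak (56.3%) was 64.1% at a threshold of 8, 39.7% at 15, 31.4% by the median of the name's peaks and 43.5% with the false discovery rate added (chosen after seeing the data). For list members (59.1%) the median gave 33.9%, and it moved the strong count of 13 of the 19 lists by over 1.5 times, while the added false discovery rate moved 2. The motif search inside peaks and its alternatives were not run, and motifs were counted in start windows and hairpins only. Depth is unknown, so no interval could be put on a fold enrichment.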

Other observations

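The mitochondrial genome, looked at after its values were seen, carried 10 peaks. The strongest were 23.6 within *mt-Nd4* (positions 11394 to 11544 of the mitochondrial genome, log10 p of -19400), which encodes a subunit of complex I, and 15.7 under the name *mt-Tw*, a tRNA gene (positions 4773 to 4951, log10 p of -27600). The other 8 lay between 1.5 and 4.51.

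The longest peaks covered several kilobases of exonic sequence. *Apc2* had 6165 bp of exonic sequence under 1 peak with a fold enrichment of 18.4, *Spen* 6115 bp with 50.9 and *Rai1* 5606 bp with 28.9, against a median of 239 bp. The choice of these 3 was made with their values in view.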
